A study of Mus musculus with 10 samples.

Results

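The genes described here are 38 protein-coding genes of the cell cycle engine, of 21853 protein-coding genes in the GENCODE M21 annotation of mouse build mm10. They were listed by name for their known roles, with earlier results of these data in view, as cyclins, cyclin-dependent kinases (CDKs), their regulators and inhibitors, pocket proteins and E2F transcription factors. They were examined in F123, a line of mouse embryonic stem cells derived from Mus musculus castaneus crossed with S129/SvJae. These cells were grown with LIF on irradiated CF1 fibroblast feeder cells and passaged once on gelatin without feeders before harvest. H3K4me3 ChIP-seq and ATAC-seq were each made from 2 biological replicates of untreated cells, and the authors deposited 1 peak list per assay that stands for both. Neither list holds read counts, so depth is unknown, and no value below has a spread between replicates or a test.

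H3K4me3 is a histone mark found at the starts of genes that are active or held ready for activity, and ATAC-seq reports DNA that the Tn5 transposase can reach. In most cells, D cyclins with CDK4 or CDK6 begin to phosphorylate the pocket proteins in G1, cyclin E with CDK2 completes this, and E2F factors released from the pocket proteins switch on genes for DNA synthesis. Cyclin A, cyclin B and CDK1 then drive S phase and mitosis, and the INK4 and CIP/KIP proteins block the kinases. Embryonic stem cells are known for a short G1 phase. A peak marks chromatin state at a start and does not measure RNA, protein or kinase activity.

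All 38 genes had an H3K4me3 peak and an ATAC peak within 2 kb of a start, where a start is the first base of a protein-coding transcript and a peak had to share at least 1 bp with the window. Over all protein-coding genes the share was 68.9% for H3K4me3, 76.9% for ATAC and 68.5% for both. The 6 inhibitors (Cdkn1a, Cdkn1b, Cdkn2a, Cdkn2b, Cdkn2c and Cdkn2d) therefore did not differ from the 13 S and M phase drivers (Ccne1, Ccne2, Ccna1, Ccna2, Cdk2, Cdc25a, Ccnb1, Ccnb2, Cdk1, Cdc25b, Cdc25c, Plk1 and Aurka) in whether these peaks were present. Of 60 other cell cycle genes listed by function, 59 were found by symbol, and all 59 had both peaks. These were 9 E2F partners and DREAM complex genes, 7 CDK accessory genes and further inhibitors, 16 replication licensing genes, 8 genes of S phase supply, and 19 of degradation and checkpoints.

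The cells were checked with 8 embryonic stem cell markers and 8 markers of the feeder fibroblasts. All 8 stem cell markers had an H3K4me3 peak near a start, with fold enrichments of 9.74 to 42.9 and a median of 26.5. Over all protein-coding genes with such a peak the median was 30.8. Only Pou5f1 (35.1) and Sox2 (42.9) lay above that value, and Nanog (14.9) and Dppa5a (9.74) were the lowest. Of the fibroblast markers, 5 of 8 had such a peak, with fold enrichments of 3.39 to 20.4, and Col3a1, Postn and Lum had none. ATAC peaks lay near a start of 7 of the 8 fibroblast markers. Over all protein-coding genes the shares were 68.9% for H3K4me3 and 76.9% for ATAC, so the fibroblast counts were close to those of genes in general. The part of feeder DNA in the cell cycle peaks was not tested.

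**Figure D1:**
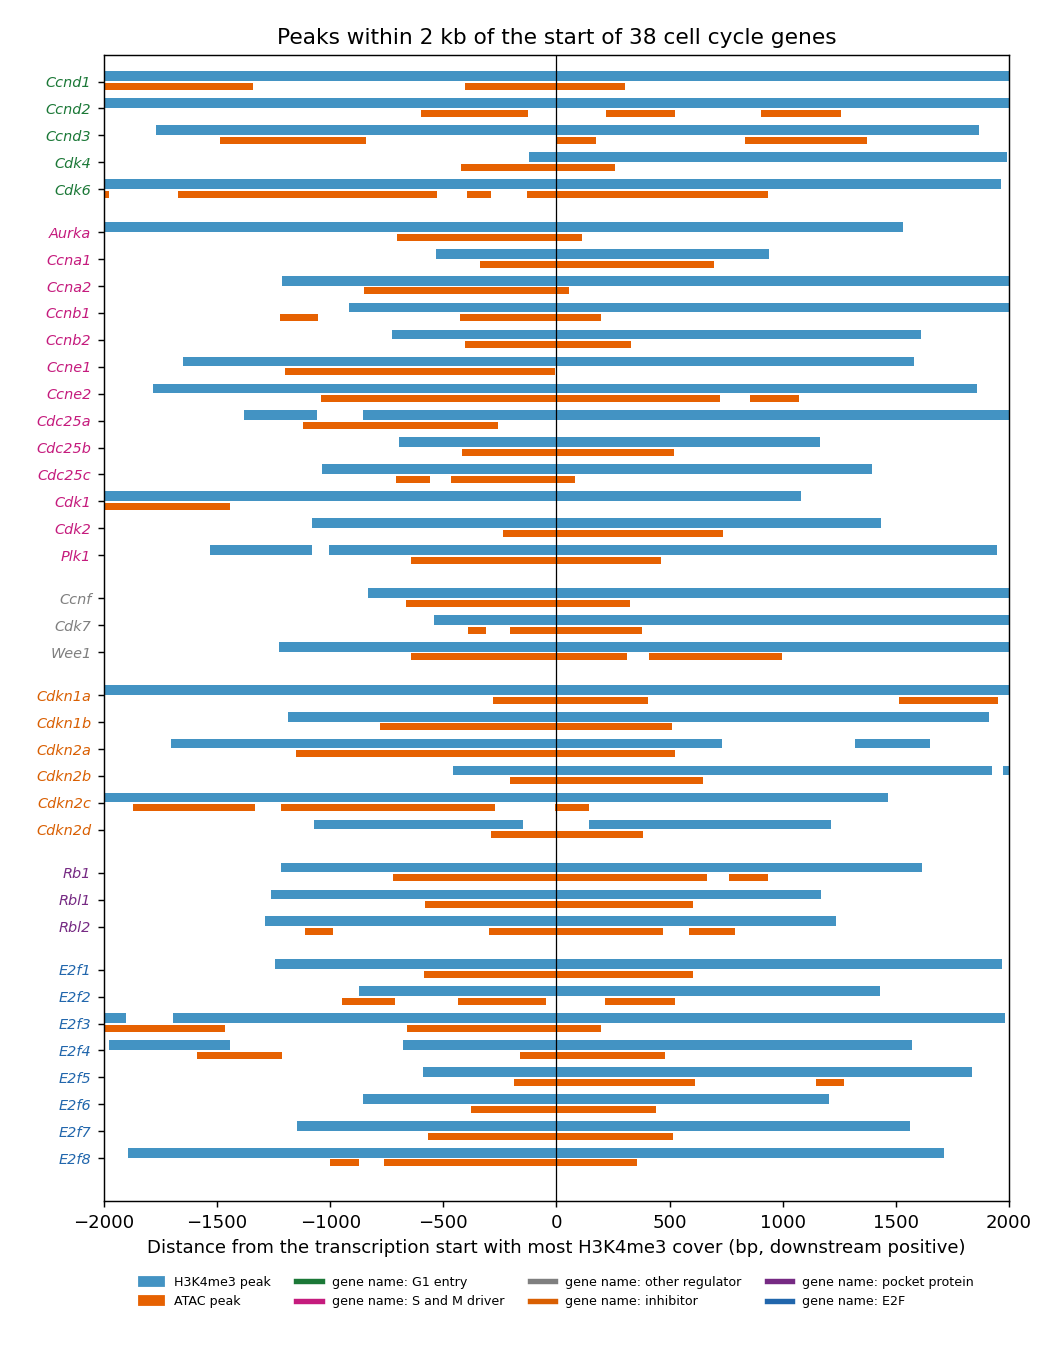
Rows are the 38 genes, grouped by role (colour of the name), and the horizontal axis is the distance in bp from the coding start with most H3K4me3 cover, downstream to the right. Blue bars are H3K4me3 peaks and orange bars ATAC peaks of the deposited lists, clipped at 2 kb. Every row carries both kinds of bar, Ccnd1, Ccnd2 and Cdkn1a are blue from edge to edge, and Ccna1 has the fewest blue bases, 1472.

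The 38 genes have 99 coding starts, of which 93 lay inside an H3K4me3 peak and 82 inside an ATAC peak. By gene, all 38 had a start inside an H3K4me3 peak and 37 had one inside an ATAC peak. Over all protein-coding genes these shares were 65.8% and 68.4%. Only E2f2 had no GENCODE coding start inside an ATAC peak. Its start lay between a 388 bp peak ending 49 bp upstream and a 309 bp peak beginning 215 bp downstream. The RefSeq starts of E2f2, at 136172274 and 136180782 (chromosome 4), both lay inside ATAC peaks. The alternative start of Cdkn1a at 29097900 (chromosome 17) was without an ATAC peak within 2 kb, that of Cdc25a at 109883604 (chromosome 9) was without an H3K4me3 peak and that of Ccna1 at 55050638 (chromosome 3) was without either. Of the 71 ATAC peaks near the starts, 65 overlapped an H3K4me3 peak, a share that was not computed for other genes. The summit of the strongest H3K4me3 peak lay within 300 bp of the nearest start in 30 of the 38 genes. The same count over all marked genes was not made. The median summit lay 154 bp downstream, against 153 bp over all 15051 genes with an H3K4me3 peak near a start. At the 5′ end of the gene record, 32 of 38 had more marked bases downstream than upstream, and 78.6% of the 15051 genes did.

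Most of these genes lay above the median of all marked genes in the extent and the strength of the H3K4me3 peak. For each gene the bases inside H3K4me3 peaks were counted in a window of 4001 bases around each start, and the start with most was taken. The median was 2876.5 bases over the 38 genes and 2227 over the 15051 marked genes, and 33 of 38 lay above the latter median, which 50.0% of marked genes do. The strongest peak near a start had a median fold enrichment of 40.0 in the 38 genes and 30.8 in all marked genes, and 33 of 38 lay above the latter, again beside 50.0% of marked genes. The 59 other cell cycle genes had medians of 2983 bases and 37.3, so these values are not particular to the 38. A gene with more starts has more windows to take the most from, and numbers of starts were not compared with other genes. Fold enrichment is a column of the deposited list that was read by the narrowPeak standard, since the list has no header, as the ratio of signal over the background of the peak caller, and −log10 q was read in the same way. For ATAC, the median of the widest peak near a start was 890.5 bp in the 38 genes and 927 bp in the marked genes. Counts and medians over named genes are descriptions of these lists, with no test of their own.

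**Figure D2:**
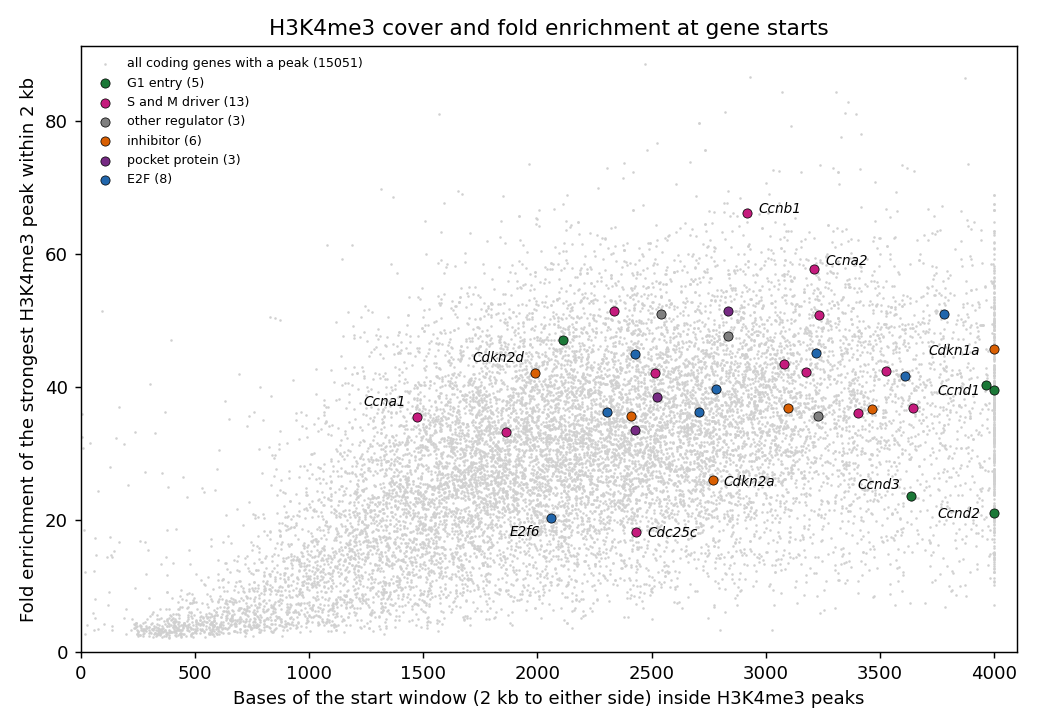
Each point is a gene. The horizontal axis is the number of bases of a 4001-base start window inside H3K4me3 peaks, the vertical axis the fold enrichment of the strongest peak within 2 kb, grey points are the 15051 marked genes and coloured points the 38 by role. The orange inhibitors (25.9 to 45.6) lie inside the range of the pink S and M drivers (18.1 to 66.3) in fold enrichment, with Ccnb1 the highest coloured point.

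Promoter sequences showed where the classes carry known control elements. RefSeq (GRCm38.p6) gave windows from 250 bases before to 50 after a start for 29 of the 38 genes, in 35 windows. Ccna2, Ccnd1, E2f5, Ccne2, E2f4, Rb1, Ccnd2, Wee1 and Cdc25c had no entry. An E2F site was taken as TTTCGCGC, TTTGGCGC, TTTCCCGC or TTTGCCGC, a CHR (cell cycle genes homology region, bound by the DREAM and MuvB complexes) as TTTGAA, and a CCAAT box as CCAAT, each on either strand. No match of 1 motif overlapped a match of another in the 35 windows. An E2F site was in 8 of 35 windows (22.9%), against 2.87% of 20143 windows of all coding genes and 3.93% of the 13821 of them with an H3K4me3 peak within 2 kb. A CHR was in 10 (28.6%, against 15.2% and 10.8%) and a CCAAT box in 20 (57.1%, against 37.8% and 37.3%).

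By role, the counts were as follows. Of 10 driver windows, 3 held an E2F site (Cdk1, Cdk2 and Cdc25a), 4 a CHR (Ccnb2, Cdk1, Plk1 and Aurka) and 9 a CCAAT box. Among 9 inhibitor windows these numbers were 1, 1 and 4. None of the 4 windows of Ccnd3, Cdk4 and Cdk6 held an E2F site or a CHR. In the E2F family, E2f2, E2f3 and E2f7 held an E2F site in 1 window each, and E2f2, E2f3 and E2f8 held a CHR. The windows of E2f1 and E2f6 held neither. The E2f1 window was placed at a RefSeq start of 154569426 (chromosome 2, minus strand). Both coding starts of E2f1, at 154569720 and 154569892, lie upstream of that window, so the sequence before them was not read. A match is only a run of letters, and whether a factor was bound there was not measured.

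The following stretches, in mm10 coordinates, show the matches of up to 2 genes in each role, those with most first, read 5′ to 3′ along the strand of the gene with the matched element in capitals. E2f2 tied with E2f7 and E2f8 at 1 match each and was taken by its place in the list. TTCAAA is the CHR and GCGGGAAA the E2F site TTTCCCGC read on the other strand. In Cdk1, Ccnb2 and Ccnf, the capitals nearest the 3′ end stand within 20 bases of the RefSeq start.
Cdk1, chr10:69352902-69353063, minus strand: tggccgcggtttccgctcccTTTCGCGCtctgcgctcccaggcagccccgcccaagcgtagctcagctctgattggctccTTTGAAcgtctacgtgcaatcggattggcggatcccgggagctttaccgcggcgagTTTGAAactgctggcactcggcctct
Ccnb2, chr9:70421525-70421741, minus strand: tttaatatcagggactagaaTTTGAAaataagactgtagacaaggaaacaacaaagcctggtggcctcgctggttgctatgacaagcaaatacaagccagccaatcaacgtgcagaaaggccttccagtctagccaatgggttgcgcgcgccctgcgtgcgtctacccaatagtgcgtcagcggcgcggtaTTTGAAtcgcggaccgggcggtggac
Ccnf, chr17:24251398-24251559, minus strand: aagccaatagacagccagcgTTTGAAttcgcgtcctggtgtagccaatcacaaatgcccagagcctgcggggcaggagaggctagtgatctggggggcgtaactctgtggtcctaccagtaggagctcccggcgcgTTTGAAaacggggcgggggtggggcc
Cdkn2a (Arf start), chr4:89294691-89294738, minus strand: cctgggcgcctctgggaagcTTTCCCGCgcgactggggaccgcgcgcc
Cdkn2b, chr4:89311168-89311213, minus strand: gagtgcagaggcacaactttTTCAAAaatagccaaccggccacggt
Rbl1, chr2:157204525-157204572, minus strand: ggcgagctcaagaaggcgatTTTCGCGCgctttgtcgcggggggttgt
Rbl2, chr8:91069836-91069881, plus strand: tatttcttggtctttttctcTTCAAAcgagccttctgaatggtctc
E2f3, chr13:29986047-29986106, minus strand: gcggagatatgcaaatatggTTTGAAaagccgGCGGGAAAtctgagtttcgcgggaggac
E2f2 (internal RefSeq start), chr4:136180731-136180776, plus strand: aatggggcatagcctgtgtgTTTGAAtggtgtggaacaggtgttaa

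Cdk1, the mitotic kinase, held 1 E2F site, which began 131 bases before its RefSeq start, and 2 CHRs, at −71 and −15. Ccnb2, a cyclin partner of CDK1, held its 2 CHRs at −167 and +4, and Ccnf, an F-box cyclin that serves in protein breakdown, at −130 and −14. In the Cdkn2a window the E2F site began 99 bases before the RefSeq start of Arf, 89294619. The coding start of Arf used below, 89294653, lies upstream of that RefSeq start. In Rbl1 the E2F site began 18 bases and in E2f3 11 bases before the RefSeq start. The starts of all these windows lay inside an H3K4me3 peak and an ATAC peak.

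CpG content went with the mark over all genes. The ratio of the CpG count to the count that the C and G content alone would give was at least 0.6 in 30 of the 35 windows (85.7%), against 49.1% of all coding windows and 70.7% of those with an H3K4me3 peak within 2 kb, which all 35 had. Of all coding windows at or above this ratio, 98.7% had an H3K4me3 peak within 2 kb, and of those below it 39.6%. All 10 driver windows were above it, and of the 9 inhibitor windows 6 were. The 5 windows below it were the upstream start of Ccnd3 (0.577), the upstream start of Cdkn1a (0.0892), the Ink4a start of Cdkn2a (0.442), the downstream start of Cdkn2c (0.553) and an internal start of E2f2 (0.314). These 5 starts also lay inside H3K4me3 peaks.

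The D cyclins, which bind CDK4 and CDK6, differed in the width and strength of their H3K4me3 peaks. Ccnd1 (chromosome 7, minus strand, start at 144939869) lay in a peak of 6868 bp from 144937220 to 144944087, with a fold enrichment of 39.6. Ccnd2 (chromosome 6, minus strand, starts from 127151007 to 127152193) lay in the widest peak of the 38 genes, 8138 bp from 127148220 to 127156357, but its fold enrichment was 20.98 and its −log10 q the lowest of the strongest peaks, 162. The summit of that peak lay 2727 bp upstream of the nearest Ccnd2 start, and the peak also covers the start of the antisense gene 9330179D12Rik, 1618 bp from Ccnd2. Both genes had all 4001 bases of the window marked, as did 2.38% of marked genes.

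Ccnd3 (chromosome 17, plus strand, 47505051 to 47599691) showed 2 separate marked sets of starts. Its 8 upstream starts lay in a 1393 bp peak (47504572 to 47505964) with a fold enrichment of 13.4. The internal starts, 88419 to 92113 bp downstream of the 5′ end, met a peak of 3636 bp (47592987 to 47596622) with a fold enrichment of 23.5, which covered all of them but the last. Thus the internal set carried the wider and stronger peak. Which set makes the RNA of these cells cannot be read from peak lists.

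Cdk4, the kinase partner of the D cyclins, had a peak of 2113 bp with a fold enrichment of 47.0 that reached only 53 bp upstream of its 5′ end and through all 2000 bases downstream. Cdk6, its close relative, had 5 starts over 2827 bp, all inside 1 peak of 5269 bp (chromosome 5, 3340429 to 3345697) with a fold enrichment of 40.2. The median of covered bases over these 5 G1 entry genes was 3966.

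Among the drivers, Ccnb1, Ccna2 and Ccnb2 held the strongest peaks. Ccnb1, the main mitotic cyclin, reached the highest fold enrichment of the 38 genes, 66.3 (percentile 99.5 of the marked genes), from a 3481 bp peak. Ccna2, the cyclin A of dividing somatic cells, followed at 57.8, and Ccnb2 at 51.4. Ccna1, the cyclin A known mainly from the male germ line, was also marked, over 1472 bases, the fewest of the 38, with a fold enrichment of 35.5. It had 5 of its 6 starts in 1 ATAC peak of 1035 bp, and the antisense gene 4931419H13Rik starts 187 bp away. Cyclin A genes thus had like presence of peaks and unlike extent, 3213 bases at Ccna2 and 1472 at Ccna1.

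The CDC25 phosphatases, which remove inhibitory phosphates from CDKs, spanned much of the range of strength. Cdc25a had a fold enrichment of 42.2, Cdc25b 33.2 and Cdc25c 18.1, the lowest of the 38. Cdc25b had the second lowest cover, 1862 bases, and its start is 324 bp from that of Spef1. Cdk1 had 3 starts over 2108 bp inside 1 peak of 3570 bp (chromosome 10, 69349750 to 69353319) with a fold enrichment of 43.4, and its ATAC peak of 1142 bp covered the 2 upstream starts. Plk1 and Aurka, kinases of mitosis, had fold enrichments of 36.1 and 42.4. The genes of S phase entry, Ccne1 (50.8), Ccne2 (36.8) and Cdk2 (42.1), lay within the range of the mitotic genes.

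Some of these peaks are shared with another gene, so that the mark cannot be given to 1 gene alone. Coding starts within 2 kb were those of Spef1 (Cdc25b), Cstf1 (Aurka, 146 bp), Pmel (Cdk2, 150 bp) and Exoc3l (E2f4, 1562 bp), all on the opposite strand. The peak over the E2f4 start does not reach Exoc3l, whose start lies in a separate peak of 536 bp. That smaller peak is counted in the 2783 covered bases of E2f4. At Aurka the peak ran 1994 bases upstream, toward Cstf1, and 1532 downstream. Plk1 and Cdc25c had noncoding neighbours, Gm15489 at 38 bp and 2010110K18Rik at 276 bp.

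The inhibitors were led by Cdkn1a, the CIP/KIP inhibitor induced by p53. Its peak of 7310 bp (chromosome 17, 29090333 to 29097642) was the second widest of the set, covered 3 of its 4 starts and had the highest fold enrichment of the 6 inhibitors, 45.6. An ATAC peak of 683 bp lay over the starts at 29093769 and 29093781, and another of 206 bp over the upstream start at 29090979, where the CpG ratio is the lowest of the 35 windows. Cdkn1b, the other CIP/KIP inhibitor, was covered over 3099 bases (chromosome 6, 134919328 to 134922426) with a fold enrichment of 36.7, and had a wide ATAC peak of 1291 bp.

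Cdkn2a makes Ink4a, which blocks CDK4 and CDK6, and Arf, which stabilises p53, from separate first exons. The Arf start (chromosome 4, minus strand, 89294653) lay in an H3K4me3 peak of 2436 bp (89293923 to 89296358) with a fold enrichment of 25.9 and −log10 q of 336. The Ink4a start (89282192), 12461 bp downstream, lay in a peak of 2027 bp (89281212 to 89283238) with a fold enrichment of 9.82 and −log10 q of 81.4. ATAC peaks of 1678 bp and 662 bp covered the Arf and the Ink4a start. Both starts were thus marked and open, and the Arf values were the higher by each of these measures, as was its CpG ratio, 1.04 against 0.442.

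Cdkn2b, the INK4 gene next to it, had a start at 89311039 in a peak of 2383 bp (89309115 to 89311497) with a fold enrichment of 35.7 and an ATAC peak of 853 bp. A further H3K4me3 peak of 4776 bp (fold enrichment 8.54) lay at the 3′ end of Cdkn2a and covers the start of Gm12606, a lincRNA. The 3 gene starts of the Ink4 locus therefore had fold enrichments of 35.7, 25.9 and 9.82 in the order Cdkn2b, Arf and Ink4a.

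**Figure D3:**
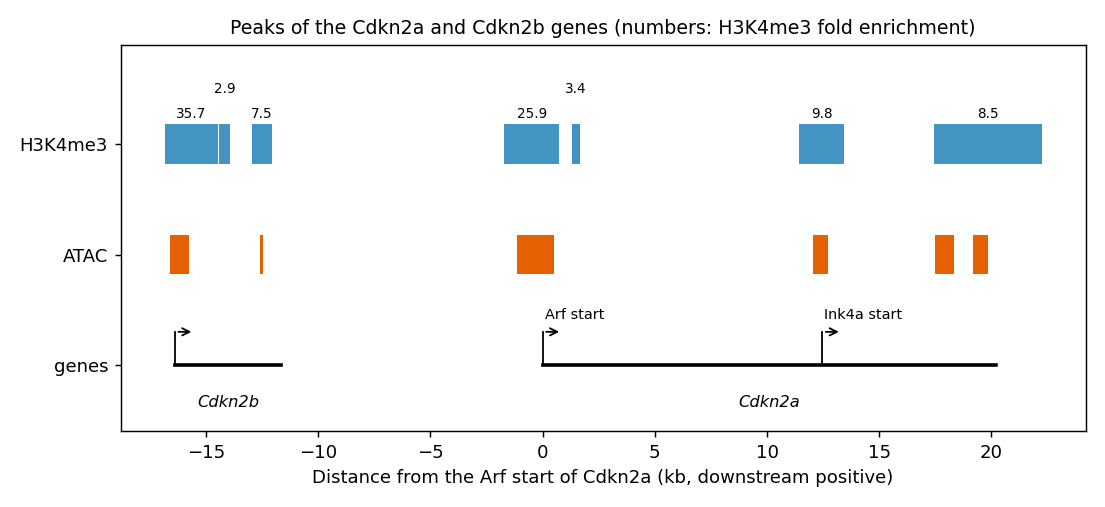
The horizontal axis is the distance in kb from the Arf start of Cdkn2a, downstream to the right, with genes as black lines, coding starts as arrows, H3K4me3 peaks in blue with their fold enrichment and ATAC peaks in orange. ATAC peaks are drawn if they touch the gene or a 2 kb start window. The Ink4a start lies in a peak of 9.82-fold enrichment, below the 25.9 at Arf and the 35.7 at Cdkn2b.

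The other INK4 genes also had peaks at each start window. Cdkn2c had 1 H3K4me3 peak of 3699 bp (chromosome 4, 109663907 to 109667605), of fold enrichment 36.7, over both of its starts, 1817 bp apart, and 4 ATAC peaks. Cdkn2d had 1990 covered bases, the third lowest of the 38, in 2 H3K4me3 peaks of 1066 bp (from 21290196) and 924 bp (from 21291554) with fold enrichments of 42.1 and 13.6. Its starts at 21291308 and 21291407 (chromosome 9) lay in the 292 bp gap between these peaks, under an ATAC peak of 674 bp.

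In all, 8 of the 38 genes had 2 or more H3K4me3 peaks near a start, close to the share among marked genes, 20.1%. They were Ccnd3, whose peaks lie at its separate sets of starts, and Cdc25a, Plk1, Cdkn2a, Cdkn2b, Cdkn2d, E2f3 and E2f4. In the 7 other than Ccnd3, gaps of 51 to 765 bp parted neighbouring peaks, and 4 of the 7 gaps overlapped an ATAC peak (Cdc25a, Cdkn2d, E2f3 and E2f4). The smaller peak had a fold enrichment of 13.6 at Cdkn2d, 10.6 at E2f3 and under 5 at the 5 others. At E2f4 the smaller peak lies over the start of Exoc3l.

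The pocket proteins, which hold E2F factors inactive, were alike in extent. Rb1 had 2835 covered bases with a fold enrichment of 51.4, Rbl1 2429 with 33.5 and Rbl2 2524 with 38.5. The E2F genes ranged from 2060 (E2f6) to 3779 bases (E2f3). E2f1, an activator, had the highest −log10 q of the strongest peaks of the 38 genes, 1015, and a fold enrichment of 45.2. E2f3, also an activator, had 51.02, E2f2 36.2, and the repressors E2f4, E2f5 and E2f6 had 39.7, 44.9 and 20.2. The atypical E2Fs, E2f7 and E2f8, which act without a DP partner, had 36.2 and 41.7. Activators and repressors overlapped in fold enrichment.

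Of the other regulators, Wee1, the kinase that holds CDK1 inactive, had a peak of 4781 bp with a fold enrichment of 35.5. Cdk7, which activates CDKs, had a fold enrichment of 50.99 and Ccnf 47.7, so that these 3 lay within the range of the drivers in fold enrichment. The peak of Wee1 was wider than the widest of the drivers, 3644 bp.

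Set side by side, the median of covered bases was 2933 in the 6 inhibitors (1990 to 4001) and 3081 in the 13 drivers (1472 to 3644). The median fold enrichment was 36.7 in the inhibitors (25.9 to 45.6) and 42.2 in the drivers (18.1 to 66.3), and the widest ATAC peak had medians of 899 bp and 940 bp. The ranges overlapped in all these measures. The order of the medians of covered bases turned when 1 start per gene or a wider window was used: at the 5′ end of the gene record they were 2530.5 in the inhibitors and 2515 in the drivers, and with 5 kb windows 3846.5 and 3385. No order of inhibitors and drivers in H3K4me3 extent can therefore be read from these data.

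Inside the genes, beyond 2 kb from every start, the picture differed more between members. H3K4me3 peaks lay in the body of 13 of the 38 genes, against 22.4% of all protein-coding genes, with 18 peaks in all. Of these, 4 covered the start of another gene: Lpar6 within Rb1, Kri1 at Cdkn2d, Elmo3 at E2f4 and Gm12606 at Cdkn2a. Without these peaks, 9 of the 38 genes had one. The 22.4% of all protein-coding genes still includes body peaks at starts of other genes. A share without such peaks was not computed, so no excess in the 38 can be read from these counts. The remaining body peak with the highest fold enrichment was in E2f2 (chromosome 4, 136179713 to 136181841, 2129 bp, fold enrichment 23.9), and it covers the internal RefSeq start at 136180782 whose sequence is given above. Ccnd3 had 6 body peaks with fold enrichments of 3.15 to 8.12, 5 of which overlapped an ATAC peak.

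ATAC peaks lay in the body of 28 of the 38 genes, against 58.9% of all protein-coding genes. They numbered 133, and 22 of them overlapped an H3K4me3 peak. That was a smaller part than of the 71 near starts, as the definitions favour, since all 38 genes were marked near a start. Neither part was computed for other genes. Long genes held most: Cdk6 had 26 in 184696 bp of body, Rb1 17 in 140149 bp, Ccnd3 14 in 84755 bp and E2f7 11 in 39812 bp. Per 10 kb of body this was 1.41 in Cdk6, 1.21 in Rb1, 1.65 in Ccnd3 and 2.76 in E2f7. The 10 genes with none were Cdk4, Ccne1, Ccna1, Ccna2, Cdk2, Ccnb1, Aurka, Cdkn1b, Cdkn2c and Cdkn2d, with bodies of 743 to 12316 bp. Over bodies of at least 1000 bp, the median per 10 kb was 1.21 in the members and 0.615 in all protein-coding genes. How the count of peaks goes with body length was not tested.

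**Figure D4:**
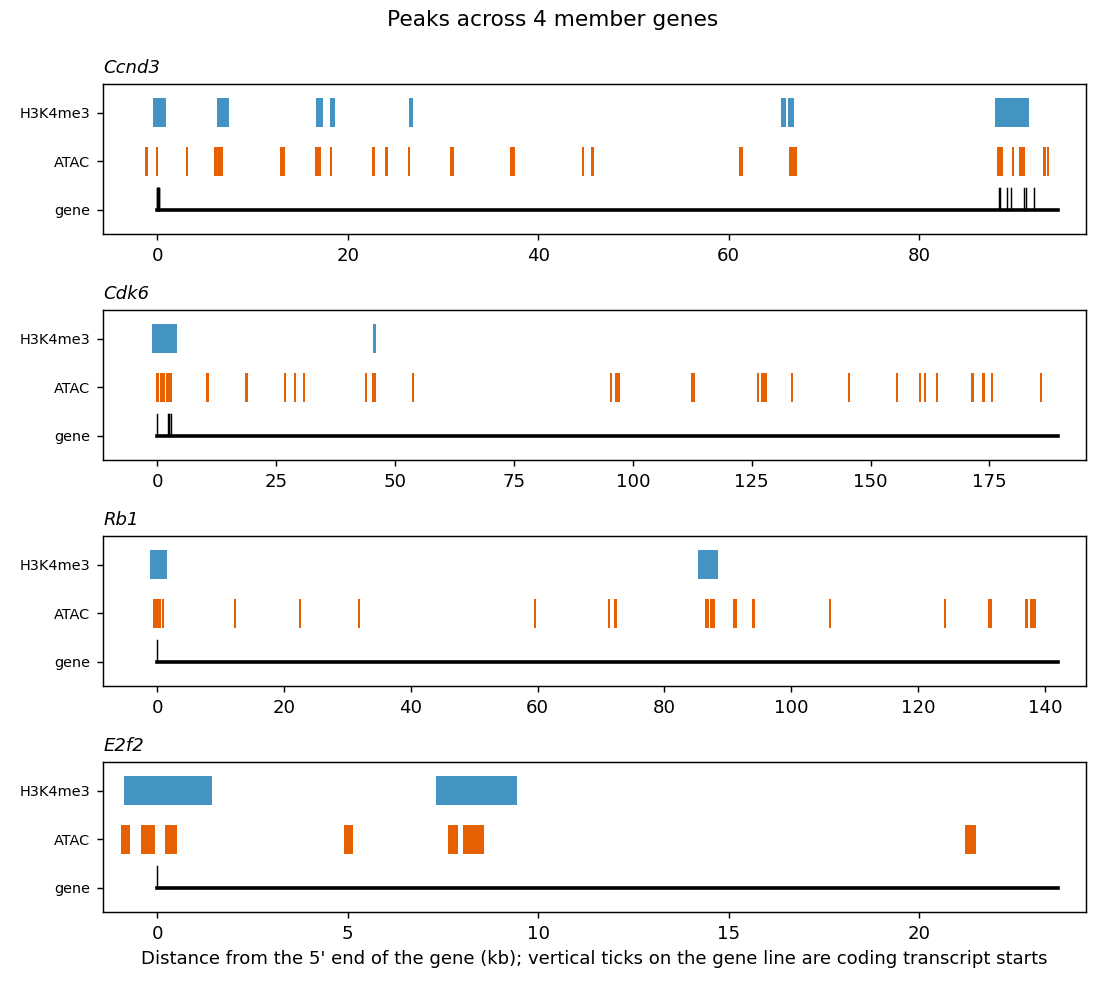
The panels are Ccnd3, Cdk6, Rb1 and E2f2, with the distance in kb from the 5′ end of the gene on the horizontal axis, coding starts as ticks on the gene line, H3K4me3 peaks in blue and ATAC peaks in orange, the narrowest drawn at a minimum width so that they can be seen. Ccnd3 shows its second set of starts under the wide peak near 90 kb, Cdk6 its 26 body ATAC peaks, Rb1 the body H3K4me3 peak at the Lpar6 start and E2f2 the internal peak of 23.9-fold enrichment.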

How the data were processed

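H3K4me3 ChIP-seq and ATAC-seq of F123 cells were used, with 2 replicates per assay and 1 deposited list each. The authors made the H3K4me3 list (33487 peaks) with the ENCODE histone ChIP-seq pipeline at default parameters and saved input chromatin as a control. The aligner, the threshold as a value and the part of the input in peak calling are not given in the sources used here. The list has no header, so its deposited columns were read by the narrowPeak standard as a fold enrichment (a ratio), −log10 p and −log10 q values and summits, and its build, mm10, comes from the labels. The authors made the ATAC list (179109 peaks) with bowtie 1.1.2, MACS2 2.1.1.20160309 and bedtools 2.27.1 on mm10, moved read ends for Tn5 and kept pooled peaks found in both replicates. The paper gives the calling threshold of these peaks as a p-value, with no correction stated. ATAC peak widths began at 73 bp, with a median of 261 bp. The ATAC list holds positions only. PLAC-seq and input samples were not analysed here.

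Starts came from GENCODE M21 (chromosomes 1 to 19, X and Y). Overlaps were computed with Python 3.11.15, numpy 2.4.6 and pandas 2.3.3, were checked on simulated data, and figures were drawn with matplotlib 3.10.9. A body peak has no base within 2 kb of a start. Genes and lists were chosen with earlier results of these data known. All 38 genes are accounted for. Positions are given for inhibitors and D cyclins, further values for extremes and genes with starts over 2 kb apart, and sequences for at most 2 genes per role, those with most matches that end within 30 bases after the start. Other genes and values in the text were chosen after seeing the data. Alternatives varied the window, the start, the peak threshold and the overlap rule.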

Additional observations from a re-analysis of the deposited data

How the results depend on the processing

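The counts of genes with peaks near a start or in the body had 60 alternative values (windows of 500 bp to 5 kb, peaks over the start itself, the 5′ end alone, peak midpoints, H3K4me3 peaks with −log10 q of at least 5 or 50, the widest 50% of ATAC peaks, and body peaks at least 5 kb from starts), and all 60 were within 1.5 times the values reported. This limit is wide, and a count that already holds every gene of its class cannot rise. Genes with an H3K4me3 body peak fell from 13 to between 10 and 12. Those with an ATAC body peak fell from 28 to between 22 and 26. Body shares of all genes at these settings were not computed. All 38 genes kept an H3K4me3 peak near a start under each window, start and threshold. An ATAC peak lay over a GENCODE coding start of 37, E2f2 being the exception. The median of covered bases was 2933 in the inhibitors and 3081 in the drivers. It was 2530.5 and 2515 at the 5′ end, 1991 and 2001 with 1 kb windows, 3846.5 and 3385 with 5 kb windows, and 2767 and 3128 with the pocket proteins added to the inhibitors and E2f1, E2f2 and E2f3 to the drivers. Without Ccna1 and Cdc25c the drivers had 3175. Wider and narrower windows change these values by construction. No paired analysis was possible because each list stands for both replicates, and leaving out a replicate was not run for the same reason. Without read counts, how deeper sequencing would change a peak is unknown.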
